A study of Mus musculus with 9 samples.

Results

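Arrays of invariant natural killer T (iNKT) cells of the mouse thymus were labelled Utx wildtype or Utx knock out. The genes examined here encode transforming growth factor beta (TGF-beta), its receptors and the Smad proteins that carry its signal. They are 10 genes: the ligand gene Tgfb1, the receptor genes Tgfbr1, Tgfbr2 and Tgfbr3, the signal transducers Smad2, Smad3 and Smad4, the inhibitory Smad7, and the corepressor genes Ski and Skil. They were chosen by symbol, as every array probe set annotated to exactly 1 of these genes, which gave 24 of the 34945 probe sets with 1 gene. All 10 passed the filter on low levels and are among the 14524 genes tested. The arrays carry RNA of thymic iNKT cells sorted from mice of 8 to 12 weeks, 5 labelled Utx wildtype (WT1 to WT5) and 4 labelled Utx knock out (KO1 to KO4), all given as biological replicates. Utx, also called Kdm6a, is a demethylase of histone H3. The strain, the agent of the deletion, the promoter that drives it and whether animals were pooled are not given in the sources used here.

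TGF-beta is secreted in a latent form and, once activated, binds a type II receptor (Tgfbr2) that recruits and activates the type I receptor kinase (Tgfbr1). This kinase phosphorylates Smad2 and Smad3, which join Smad4, enter the nucleus and change transcription. Smad7 blocks the receptor and is itself induced by the signal, while Ski and Skil hold Smad target genes in check. T cells depend on this pathway for tolerance and for residence in epithelia, and iNKT cells need it during their development in the thymus.

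The titles name 3 batches that are unevenly spread over genotype. Batch 1 holds WT1 and KO1, batch 2 holds WT2 with KO2, KO3 and KO4, and batch 3 holds 3 wildtype arrays. The genotype difference was therefore fitted within batches, with limma over all 14524 genes and Benjamini-Hochberg adjustment. The deposited values hold almost no batch differences: with genotype in the model, 0 genes had a batch p under 0.05 (limma's moderated F, unadjusted), and 74.3% had one over 0.95. Values with ordinary scatter would spread these p evenly, so the batches were closer to each other than scatter between arrays leaves them. Deviations from the group mean correlated across genes at -0.99 between WT1 and WT2 and at -0.92 between WT1 and KO1. Levels, SDs and overlaps by array below are therefore not those of independent arrays, and the values within batch 1 and batch 2 are not separate repeats of a difference. Utx itself was not lower on the arrays labelled knock out in a way that passed the test. Its 4 probe sets differed by -0.01, -0.46, -0.23 and 0.52 (log2, SE 0.19 to 0.31, adjusted p 0.126 to 0.976 by limma over all probe sets), and the groups overlapped on 3 of them. Which exons were deleted is not stated, and a probe set outside the deleted part checks nothing, so these values do not check the genotype labels. Wildtype and knockout below mean arrays labelled so. T and iNKT cell markers averaged 12.02 to 12.21 (mean log2 level over 8 genes) on wildtype and 11.91 to 12.06 on knockout arrays. Of these 8 genes, Thy1 rose (log2 difference 0.89, adjusted p = 0.0391 by limma) and Il2rb fell (-1.01, adjusted p = 0.0231). Of all genes tested, 7.88% were called as higher. Markers of other cells averaged higher on knockout arrays, though not every listed gene was higher. Those of double-positive thymocytes averaged 10.20 to 10.74 on wildtype and 11.42 to 12.03 on knockout arrays, and 6 of 9 tested rose. Those of macrophages and dendritic cells averaged 5.90 to 6.54 and 7.21 to 7.89, with 5 of 9 tested rising. Those of B cells averaged 6.38 to 6.85 and 7.02 to 7.99, with 2 of 6 rising, and of the stromal and epithelial markers 1 of 8, Col1a1, rose. Of these other markers, only Itgam lay below the filter level, and a log2 array level has no 0. The part of these cells in the differences below was not tested, and in a bulk sample fewer expressing cells cannot be told apart from less RNA per cell.

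Among the 10 genes, 1 passed the test. Smad7, the inhibitory Smad, fell 2.21-fold on the arrays labelled knockout, while Tgfbr2 (-0.54), Tgfbr3 (0.46), Tgfbr1 (0.63) and Smad2 (0.48, all log2 differences) came next by p without passing. Of all genes tested, 11.3% were called, 7.88% as higher and 3.37% as lower, so 1 of 10 is a share near the background. Of the 10 differences 5 were positive and 5 negative, with a median of -0.01 beside 0.11 over all genes. Levels did not overlap between genotypes for 4 of the 10 (Tgfbr2, Tgfbr3, Smad3 and Smad7), against 35% of all genes. Unadjusted p was under 0.05 for 4 of the 10 (Smad7, Tgfbr2, Tgfbr3 and Tgfbr1), against 30.8% of all genes.

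**Figure D1:**
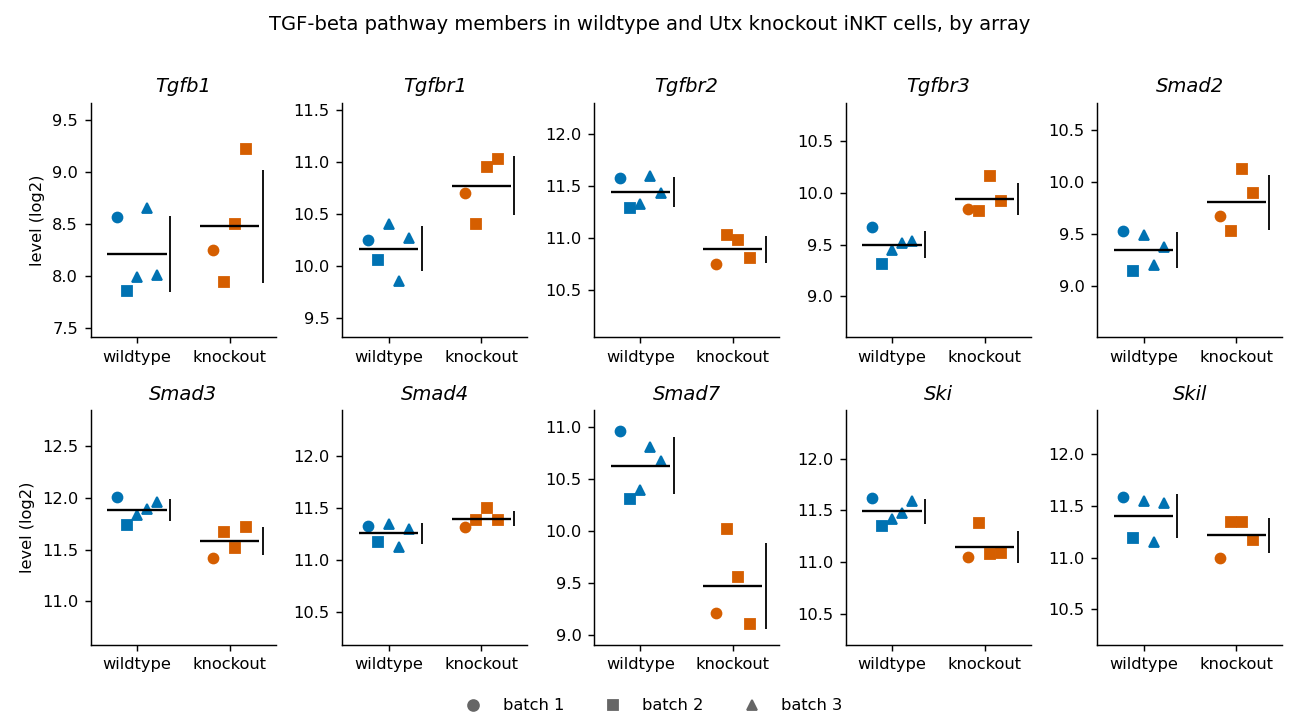
Log2 level of each of the 10 genes on the 5 wildtype (blue) and 4 knockout (orange) arrays, taken from the probe set of highest mean; the symbol gives the batch, the horizontal line the group mean and the vertical line its SD. Every panel spans the same log2 range, and Smad7 shows the widest gap, from 10.30 or more on wildtype arrays to 10.02 or less on knockout arrays.

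Levels below are log2 and stand in the order of the array numbers, WT1 to WT5 and KO1 to KO4. Tgfb1 encodes the main TGF-beta ligand of the immune system. Its level was 8.57, 7.86, 7.98, 8.65 and 8.01 on the wildtype arrays and 8.25, 7.94, 8.50 and 9.22 on the knockout arrays. The groups overlapped, with KO4 above every wildtype array and KO2 below 4 of the 5. The fitted difference was 0.29 (SE 0.39, adjusted p = 0.641 by limma), and 0.03 after quantile normalization and 0.09 after range scaling. Its other probe set gave 0.03 (SE 0.19, adjusted p = 0.947 over all 34945 probe sets). Within batch 1 the 2 probe sets differed by -0.32 and -0.35 and within batch 2 by 0.70 and 0.28, so the sign turned between batches.

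Tgfbr2 encodes the receptor that binds the ligand. On its probe set of highest mean, 1426397_at, WT1 to WT5 read 11.58, 11.29, 11.32, 11.60 and 11.43 and KO1 to KO4 read 10.75, 11.03, 10.98 and 10.81. Every knockout array lay below every wildtype array. The fitted difference was -0.54 (SE 0.18, 1.45-fold, adjusted p = 0.0810 by limma), against -0.83 within batch 1 and -0.35 within batch 2. The other 2 probe sets pointed the same way and also did not overlap between groups. On 1425444_a_at the wildtype mean was 6.17 ± 0.29 (SD, n = 5) and the knockout mean 5.57 ± 0.06 (n = 4), a difference of -0.58 (SE 0.22, adjusted p = 0.131). On 1422019_at the difference was -0.28 (SE 0.15, adjusted p = 0.260), at a mean level of 2.40, below the filter level of 4.54, where a signal above background is not shown, and its sign turned under scaling to equal interquartile ranges (0.15). On the probe set of highest mean the difference passed after another quantile normalization (-0.66, adjusted p = 0.0418) and after scaling to equal interquartile ranges (-1.05, adjusted p = 0.0130).

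Tgfbr1, the type I receptor kinase gene, gave different readings on its 3 probe sets. On 1420895_at, the one of highest mean, WT1 to WT5 read 10.24, 10.06, 10.40, 9.85 and 10.27 and KO1 to KO4 read 10.70, 10.40, 10.95 and 11.03. KO2 lay at the level of WT3 and the other knockout arrays above all wildtype arrays. The difference was 0.63 (SE 0.24, 1.54-fold, adjusted p = 0.122), against 0.46 within batch 1 and 0.74 within batch 2, and 0.19 after range scaling. On 1420894_at, WT1 to WT5 read 7.25, 8.59, 7.86, 7.91 and 7.71 and KO1 to KO4 read 7.71, 7.46, 6.52 and 6.68, a difference of -0.84 (SE 0.44, adjusted p = 0.248). On 1420893_a_at, WT1 to WT5 read 5.75, 6.96, 6.72, 5.63 and 6.54 and KO1 to KO4 read 5.63, 5.55, 4.43 and 4.84, a difference of -1.26 (SE 0.49, adjusted p = 0.137). KO3 and KO4 were thus the highest arrays on one probe set and the lowest on the others. A suffix of _a_at marks a probe set that can match several transcripts of a gene. The lower readings rested on batch 2, where 1420894_at and 1420893_a_at differed by -1.71 and -2.02, while in batch 1 they differed by 0.45 and -0.12. Without WT1 or KO1, which leaves the difference to batch 2, both passed (adjusted p = 0.0260 and 0.0410). Within arrays, 1420893_a_at minus 1420895_at lay at -4.49 to -3.09 on wildtype and at -6.52 to -4.85 on knockout arrays, without overlap. A limma fit of 16752 such differences between probe sets of 1 gene, chosen after these values were seen, gave -1.89 for this pair (SE 0.57, adjusted p = 0.121) and -1.47 for 1420894_at against 1420895_at (SE 0.59, adjusted p = 0.190). Of the 14 such differences within these genes 0 passed by limma and 3 had an unadjusted p under 0.05, against 1.07% passing (0.227% as higher, 0.848% as lower) and 23% with an unadjusted p under 0.05 among all. No direction is therefore given for Tgfbr1 as a gene.

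**Figure D2:**
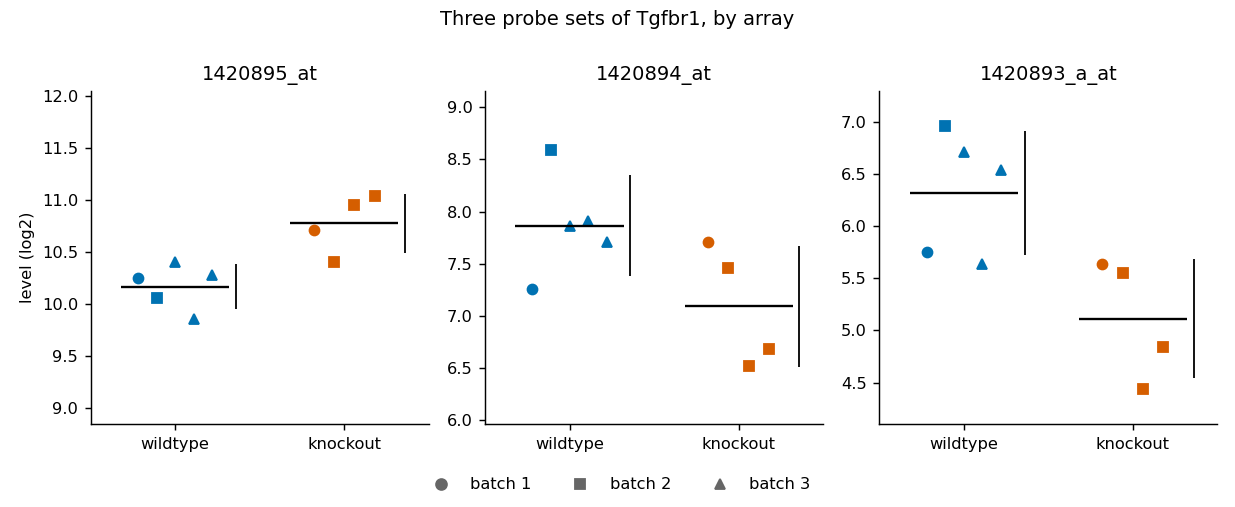
Log2 level of the 3 Tgfbr1 probe sets on each wildtype (blue) and knockout (orange) array, with symbols for the batch, the group mean as a horizontal line and its SD as a vertical line. The fitted difference was 0.63 on the left probe set and -0.84 and -1.26 on the others, and none passed the test.

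Upstream sequence of the paired receptors is shown because Tgfbr2 and the main probe set of Tgfbr1 pointed in opposite directions and because RefSeq lists more than 1 start for Tgfbr1. The windows run from 250 bases before to 50 after a start, from RefSeq in build GRCm38.p6. Windows were at hand for 5 of the 10 genes (Tgfb1, Tgfbr1, Tgfbr2, Smad3 and Ski). Capitals mark CAGAC, a core of Smad binding elements, searched on both strands. The windows are chr4:47352972-47353271 and chr4:47385966-47386265 (Tgfbr1, plus strand) and chr9:116175314-116175613 (Tgfbr2, minus strand), each written 5′ to 3′.
Tgfbr1, upstream start: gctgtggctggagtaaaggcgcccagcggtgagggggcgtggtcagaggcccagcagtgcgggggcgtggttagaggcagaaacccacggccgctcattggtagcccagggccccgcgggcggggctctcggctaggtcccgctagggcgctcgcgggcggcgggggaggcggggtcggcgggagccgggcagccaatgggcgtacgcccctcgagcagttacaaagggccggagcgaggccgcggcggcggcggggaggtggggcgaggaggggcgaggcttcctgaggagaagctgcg
Tgfbr1, downstream start: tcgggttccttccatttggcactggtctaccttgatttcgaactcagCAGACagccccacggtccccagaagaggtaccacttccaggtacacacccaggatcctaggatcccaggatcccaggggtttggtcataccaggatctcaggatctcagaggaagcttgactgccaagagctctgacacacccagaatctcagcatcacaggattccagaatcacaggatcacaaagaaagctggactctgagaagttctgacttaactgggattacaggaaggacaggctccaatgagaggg
Tgfbr2: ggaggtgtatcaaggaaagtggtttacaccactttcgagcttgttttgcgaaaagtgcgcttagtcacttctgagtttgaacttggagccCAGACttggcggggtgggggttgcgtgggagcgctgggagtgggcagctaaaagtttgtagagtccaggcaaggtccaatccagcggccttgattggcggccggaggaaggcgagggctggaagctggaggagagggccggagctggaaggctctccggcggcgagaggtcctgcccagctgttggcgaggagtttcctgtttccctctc

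The upstream Tgfbr1 window holds 34 CpG dinucleotides, the downstream one 3 and the Tgfbr2 window 15, beside a median of 7 over all 32851 windows of this length. Ski had the most among these genes, with 59, and Tgfb1 and Smad3 had 30 and 25. CAGAC occurs once in the downstream Tgfbr1 window, once in that of Tgfbr2 and in none of the other 4, against 49.6% of all windows. The palindromic Smad binding element GTCTAGAC is in none of the 6 windows and in 0.213% of all. The GC box GGGCGG is in 4 of the 6 windows (Tgfb1, the upstream Tgfbr1 start, Smad3 and Ski) and in 35.7% of all. These counts describe letters in a window, and the array does not measure promoters.

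Tgfbr3 encodes betaglycan, a coreceptor that presents the ligand to Tgfbr2. On 1433795_at its level was 9.67, 9.32, 9.44, 9.52 and 9.54 on the wildtype arrays and 9.84, 9.83, 10.16 and 9.92 on the knockout arrays. All knockout arrays lay above all wildtype arrays, and the difference was 0.46 (SE 0.18, 1.37-fold, adjusted p = 0.121). It was smaller after another quantile normalization (0.19), after scaling to equal interquartile ranges (0.12) and with the mean of its probe sets (0.02). The other probe set, 1425620_at, read lower in every knockout array (4.52 to 4.80) than in any wildtype array (4.98 to 5.23), a difference of -0.41 (SE 0.16, adjusted p = 0.135), near the filter level. Within arrays the second minus the first differed by -0.87 between genotypes (SE 0.22, adjusted p = 0.0924). As for Tgfbr1, the probe sets of Tgfbr3 thus pointed in opposite directions without either passing. Over all 16752 such differences between probe sets of 1 gene, the median was -0.09 and 41.6% were positive. The interquartile range of all levels on an array was 3.45 to 3.84 on wildtype and 3.80 to 4.29 on knockout arrays. The part of this spread in the Tgfbr1 and Tgfbr3 readings was not tested.

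**Figure D3:**
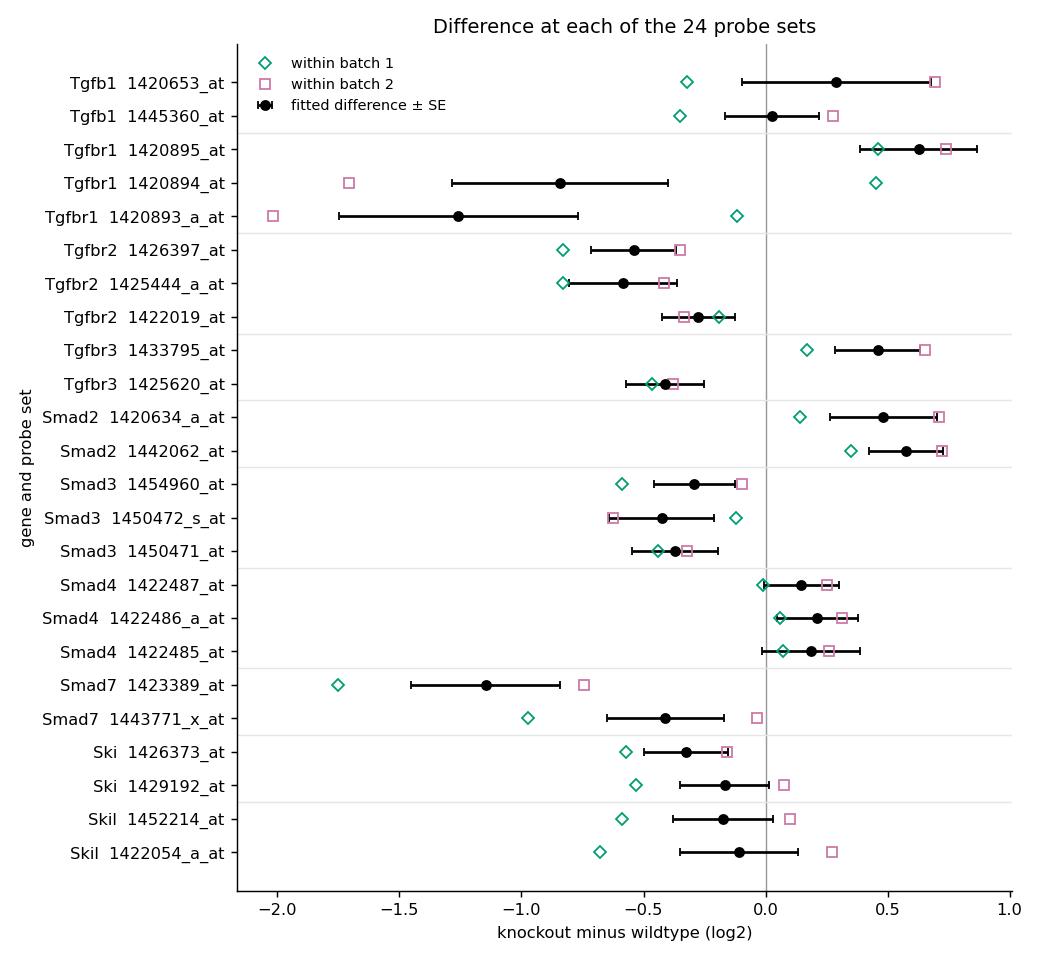
Knockout minus wildtype difference in log2 level at each of the 24 probe sets, listed by gene and within a gene by mean level; black points and bars give the fitted difference and its SE, green diamonds and pink squares the difference within batch 1 and batch 2. The probe sets of Tgfbr1 and Tgfbr3 lie on both sides of 0. At the probe set of highest mean of every gene, batch 1 gave a lower value than batch 2.

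Smad2 and Smad3 are the proteins that the activated type I receptor phosphorylates, and they pointed in opposite directions. Smad2 read 9.53, 9.14, 9.49, 9.20 and 9.38 on the wildtype arrays and 9.68, 9.53, 10.13 and 9.90 on the knockout arrays, with KO2 at the level of WT1. The difference was 0.48 (SE 0.22, 1.40-fold, adjusted p = 0.177 by limma), against 0.14 within batch 1 and 0.71 within batch 2. It was 0.20 after quantile normalization and 0.15 after range scaling. On its weaker probe set, 1442062_at, the wildtype arrays lay at 5.71 to 6.02 and the knockout arrays at 6.37 to 6.46, a difference of 0.58 (SE 0.15, adjusted p = 0.0558 over all probe sets). This was the smallest adjusted p of the 24 probe sets, and 0 of them passed, with 8 at an unadjusted p under 0.05. Of all probe sets 7.36% passed (4.7% as higher, 2.66% as lower) and 28.4% had an unadjusted p under 0.05.

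Smad3 read 12.01, 11.73, 11.84, 11.89 and 11.96 on the wildtype arrays and 11.42, 11.67, 11.52 and 11.72 on the knockout arrays. The groups did not overlap, although WT2 and KO4 were 0.01 apart at these values. The difference was -0.29 (SE 0.17, 1.23-fold, adjusted p = 0.264), against -0.59 within batch 1 and -0.10 within batch 2. Its other probe sets gave -0.43 (SE 0.21, adjusted p = 0.231) and -0.37 (SE 0.18, adjusted p = 0.208), at mean levels of 5.90 and 5.12. The groups did not overlap on either, but WT3, WT4 and WT5 had identical values on each (6.09 and 5.27). Of the 24 probe sets 11 had groups that did not overlap, against 32.3% of all probe sets. Under scaling to equal interquartile ranges, which moved the median difference of all genes from 0.11 to -0.06, Smad3 passed as lower (-0.86, adjusted p = 0.0209).

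Smad4 is the partner that Smad2 and Smad3 share. It read 11.33, 11.17, 11.35, 11.13 and 11.30 on the wildtype arrays and 11.32, 11.39, 11.50 and 11.39 on the knockout arrays, with KO1 inside the wildtype range. KO2 and KO4 had identical values. The difference was 0.15 (SE 0.15, adjusted p = 0.544), and its other probe sets gave 0.21 and 0.19. The sign turned under scaling to equal interquartile ranges (-0.38), so no direction is given for Smad4.

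Smad7 binds the activated type I receptor and brings ubiquitin ligases to it. On 1423389_at its level was 10.96, 10.30, 10.40, 10.81 and 10.67 on the wildtype arrays and 9.21, 10.02, 9.56 and 9.11 on the knockout arrays. Every knockout array lay below every wildtype array, and KO2 lay nearest to wildtype. Of the knockout arrays, KO2 also had the lowest mean log2 level of double-positive thymocyte markers (11.42) and of macrophage and dendritic cell markers (7.21). It was not the lowest for B cell markers (7.33, lowest 7.02) or for stromal and epithelial markers (6.23, lowest 6.13). The part of these cells in the Smad7 difference was not tested. The means were 10.63 ± 0.28 (SD, n = 5) and 9.47 ± 0.41 (n = 4), and the fitted difference was -1.15 (SE 0.31, 2.21-fold, adjusted p = 0.0483 by limma). It was -1.75 in batch 1 and -0.74 in batch 2. The call held when WT2 was left out, which leaves the difference to batch 1 (-1.75, adjusted p = 0.0484), or KO2 (-1.31, adjusted p = 0.0149). It was lost when any other array was left out (WT1, WT3, WT4, WT5, KO1, KO3, KO4), at differences of -1.17 to -0.74 and adjusted p of 0.0713 to 0.172. Over all 34945 probe sets the same values gave an adjusted p of 0.0575. The other Smad7 probe set, 1443771_x_at, gave -0.41 (SE 0.24, adjusted p = 0.295), against -0.97 within batch 1 and -0.04 within batch 2. On it the wildtype arrays read 9.36 to 9.94 and the knockout arrays 8.96 to 9.46, and the groups overlapped. The suffix _x_at marks a probe set that may cross-hybridise. On both probe sets the negative sign held under the scaling alternatives.

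Ski and Skil encode related nuclear corepressors that bind Smad complexes, and neither passed the test. Ski read 11.62, 11.35, 11.42, 11.47 and 11.60 on the wildtype arrays and 11.05, 11.38, 11.08 and 11.09 on the knockout arrays. KO2 stood apart from the other knockout arrays and lay within the wildtype range. The difference was -0.32 (SE 0.17, 1.25-fold, adjusted p = 0.236), against -0.57 within batch 1 and -0.16 within batch 2, and -0.17 on the other probe set (adjusted p = 0.588). Under range scaling Ski passed as lower (-0.85, adjusted p = 0.0374). Skil read 11.58, 11.18, 11.54, 11.15 and 11.53 on the wildtype arrays and 11.00, 11.34, 11.34 and 11.17 on the knockout arrays, and the groups overlapped. Its difference was -0.17 (SE 0.21, adjusted p = 0.596), and its other probe set gave -0.11 (SE 0.24, adjusted p = 0.804). Under range scaling the difference was -0.69 (adjusted p = 0.0631). On both Skil probe sets the sign turned between batches, from -0.59 and -0.68 in batch 1 to 0.10 and 0.27 in batch 2.

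The genes whose profile over the 9 arrays was most like that of Smad7, by the root mean square difference of log2 levels after each gene's own mean was taken off, were Runx3 (0.110), Ifit3 (0.112) and Hsd11b1 (0.123). Their genotype differences were -1.25, -1.24 and -1.31. For Tgfbr2, the member of next smallest p, the nearest genes were Spn (0.0366), Cd37 (0.0387) and Tor4a (0.0423), with differences of -0.55, -0.53 and -0.50. These distances describe profiles that include the genotype step and the batches.

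Of 51 other genes of the pathway, 41 were tested, and 2 of them rose and 0 fell on knockout arrays, beside 7.88% and 3.37% of all genes. The median of the 41 differences was 0.15. Nedd4l, a ubiquitin ligase that acts on receptor-activated Smads and on the receptor with Smad7, read 7.85, 7.56, 7.65, 7.76 and 7.76 on the wildtype arrays and 9.13, 8.62, 9.39 and 9.73 on the knockout arrays. All knockout arrays were above all wildtype arrays (log2 difference 1.52, SE 0.29, 2.87-fold, adjusted p = 0.0160). Its call ended without WT2 (1.28, adjusted p = 0.173), with the mean of its probe sets (0.54, adjusted p = 0.0631) and with its probe set of largest variance (1.48, adjusted p = 0.0581). It also ended without batch 3 (1.52, adjusted p = 0.0716 by limma).

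Traf6, a ubiquitin ligase that links the receptor to the kinase TAK1, read 8.15, 7.56, 7.80, 7.80 and 8.07 in wildtype and 8.73, 8.75, 9.06 and 9.22 in knockout arrays, again without overlap. WT3 and WT4 had identical values. Traf6 rose by 1.10 (SE 0.23, 2.14-fold, adjusted p = 0.0240 by limma). This call ended without WT2 (0.57, adjusted p = 0.402) or KO3 (1.06, adjusted p = 0.0537) and with the mean of its probe sets (0.56, adjusted p = 0.0630). It also ended with array weights (1.15, adjusted p = 0.0652 by limma) and without batch 3 (1.10, adjusted p = 0.0871). Traf6 also acts downstream of other receptors.

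Over all genes 11.3% were called and 30.8% had an unadjusted p under 0.05. By role, 0 of 6 genes tested for other ligands and their activation passed by limma, with 1 at an unadjusted p under 0.05, Tgfb2 (log2 difference -1.09, adjusted p = 0.102). Of 10 other receptors of the superfamily 0 passed, and the activin receptor gene Acvr2b had the smallest p (0.58, adjusted p = 0.0586), the only 1 of the 10 with an unadjusted p under 0.05. Of 3 other Smads (Smad1, Smad5 and Smad9) 0 passed and 0 had an unadjusted p under 0.05, with Smad9 at 0.16 (adjusted p = 0.554). Of 17 regulators of Smads and receptors 1 rose (Nedd4l), with a median of 0.21, and of 5 genes of the TAK1 branch 1 rose (Traf6), with a median of 0.36.

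**Figure D4:**
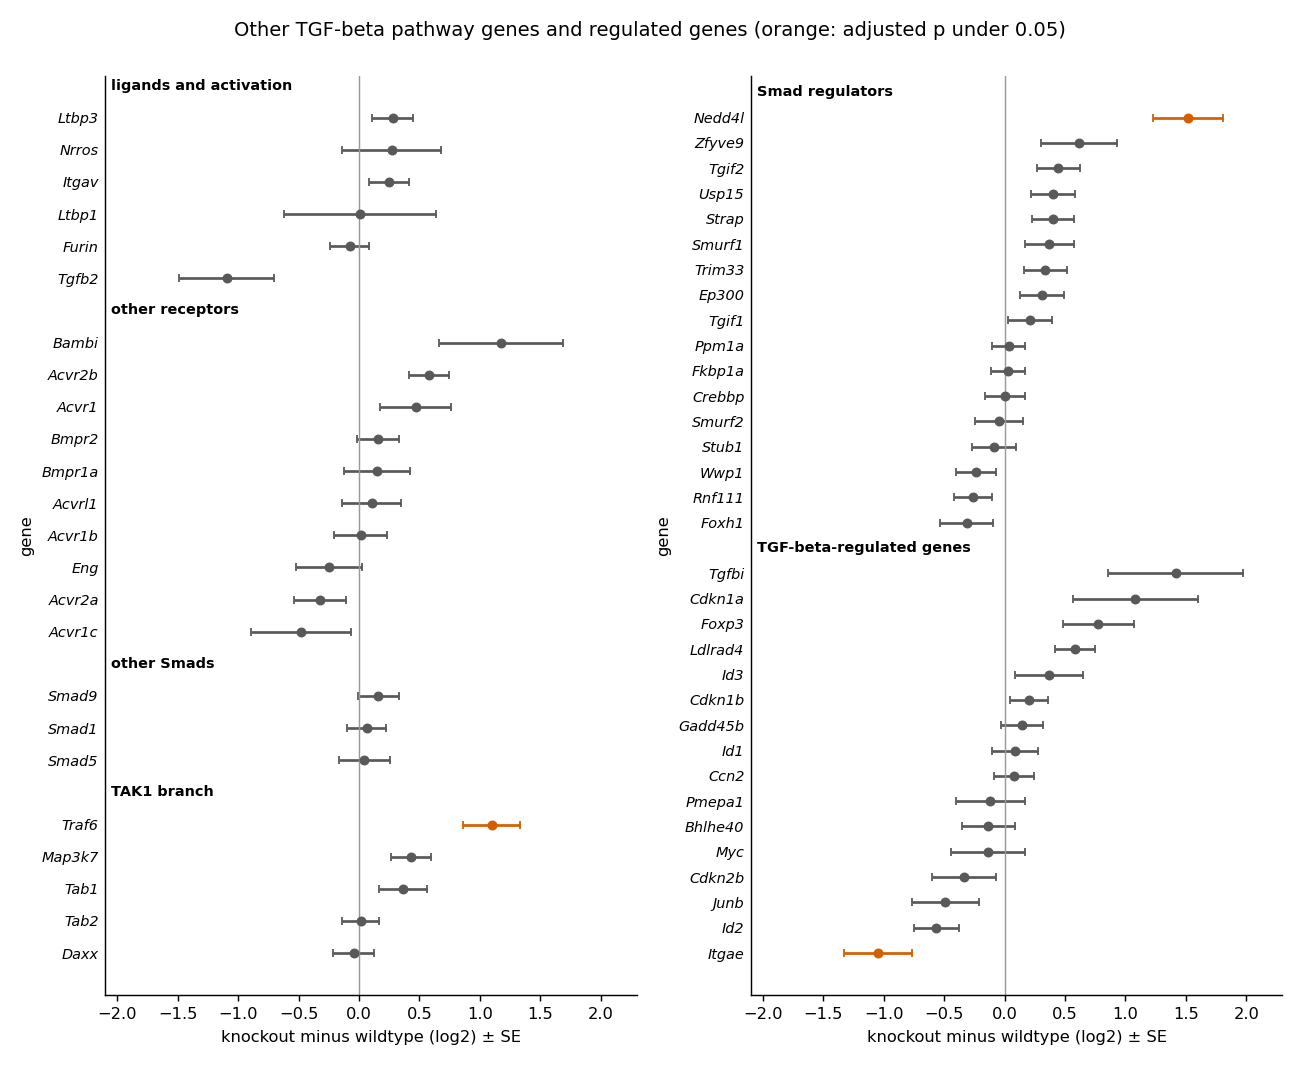
Knockout minus wildtype difference in log2 level, with its SE, of the 41 other pathway genes and 16 TGF-beta-regulated genes tested, ordered by size within each list; orange marks an adjusted p under 0.05. Nedd4l (1.52) and Traf6 (1.10) passed as higher and Itgae (-1.04) as lower.

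Genes that TGF-beta is known to regulate gave 1 call. Of 18 listed, 16 were tested, and 1 fell and 0 rose, with a median difference of 0.08. Of all genes 11.3% were called, 3.37% as lower and 7.88% as higher. Calls in either direction, 1 of 16, were thus no more than the background. Itgae encodes the alpha E integrin chain CD103, which TGF-beta induces in T cells. It read 12.64, 11.90, 12.36, 12.32 and 12.20 on the wildtype arrays and 10.83, 11.66, 11.16 and 11.27 on the knockout arrays, without overlap and with KO2 nearest to wildtype. The difference was -1.04 (SE 0.28, 2.06-fold, adjusted p = 0.0480), against -1.81 within batch 1 and -0.54 within batch 2. Its call ended without the same 7 arrays as that of Smad7 (-1.05 to -0.54, adjusted p 0.0782 to 0.166).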

How the data were processed

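RNA of sorted cells was amplified and biotin-labelled, per the labels' protocols, and hybridised to 9 arrays. The deposited values are log2 levels per probe set, made by the authors with RMA per the submitters' processing notes, with no version named. Steps after RMA are not stated, but the values hold almost no batch differences (median p of the batch term 0.979), as values already adjusted for batch with genotype kept would. Keeping batch in the fit spends its degrees of freedom, whereas fits without it count the arrays as if unadjusted, so their p-values are too small. Amplification and the summary over probes may shrink differences. With 9 arrays, precision is limited by their number.

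Of 45101 probe sets, 34945 have 1 gene in the array's annotation table, 932 several, 9160 none and 64 are controls. Genes were represented by the probe set of highest mean and tested if that mean exceeded a log2 level of 4.54, the 25th percentile over probe sets. Differences come from limma 3.58.1 (R 4.3.3), with genotype and batch as fixed factors, two-sided, Benjamini-Hochberg adjusted at 0.05, with 5 residual and 3.50 prior degrees of freedom. A second fit took all 34945 probe sets, and a further fit, added after values were seen, took the differences between probe sets of 1 gene. Simulated data with known changes, independent scatter and added batch differences served to check the limma code. They do not check it on values that hold almost no batch differences, as these do. No 2 arrays of a group were duplicates (smallest SD of a pair's difference 0.29, log2).

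Members, lists and alternatives were chosen with earlier results of these data known. Named were all 10 members, from each other list at most 4 called genes by smallest p or else the gene of smallest p, and for the 2 members of smallest p the 3 nearest profiles. In the marker lists, Thy1 and Il2rb were named after their values were seen.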

Additional observations from a re-analysis of the deposited data

Results flagged for a closer look

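Among the 48 sets of values examined (24 probe sets in each genotype), 1 had an array standing apart from its group: Ski in knockout cells, where KO2 read 11.38 and the other 3 knockout arrays 11.05 to 11.09 (log2). The gap to the nearest array made up 0.868 of the group's range, above the critical value of Dixon's test. Chance alone would flag about 1 in 20 sets of independent arrays, a rate that need not hold here since these arrays are not independent. Without KO2 the Ski difference was -0.39.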

How the results depend on the processing

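The count of called genes depended on how batch enters the fit. With no batch term, 7 of the 10 members, 15 of the 24 probe sets, 16 of the 41 other pathway genes and 6 of the 16 regulated genes passed, while 43.7% of all genes did. With batch as a random block these were 9, 20, 23 and 10 (69.2% of all genes). Since the values hold almost no batch differences, the p-values of these fits are too small. With the replicate block in place of batch they were 5, 6, 7 and 4 (29.5%). Deviations of same-numbered arrays from their group means correlated across genes at -0.92 to 0.15. With almost no batch differences left in the values, these correlations cannot show whether the replicate numbers pair the arrays.

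Scaling changed the number of calls and, over all genes, the share of them that were higher. After another quantile normalization 2 members (lower), 4 pathway genes and 1 regulated gene passed, beside 12.3% of all genes. Of the 24 probe sets 2 passed, beside 8.27% of all. After scaling to equal interquartile ranges 4 members (lower), 3 pathway genes (higher) and 2 regulated genes passed, beside 14.9% of all genes. Of the 24 probe sets 4 passed under this scaling, beside 10.6% of all. Higher genes made up 70.0% of all calls as deposited, 58.2% after quantile normalization and 48.2% after range scaling.

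No member and no regulated gene (0 each) passed with no filter, array weights, an adjusted p of 0.01, without batch 3 or without the batch 1 pair. Of all genes 9.17%, 3.68%, 2.31%, 2.33% and 12.1% passed under these settings, in the same order, beside 11.3% in the main fit. Pathway genes passing were 0 without batch 3 or at 0.01, and 1 with array weights or with the mean of probe sets. Members passing were 2 with eBayes trend and robust or at 0.1, beside 14.3% and 20.9% of all genes. Regulated genes passing were 2 with the mean of probe sets, with trend and robust or with a filter at the 50th percentile, and 3 with the probe set of largest variance or at 0.1. Under each of these settings the share of all genes passing was also above the 11.3% of the main fit. Probe sets passing were 2 with a filter at the 50th percentile or trend and robust, and 3 without the batch 1 pair or at 0.1. Of all probe sets 12.6%, 9.54%, 10.8% and 16.3% passed under these settings, in the same order, beside 7.36% in the main fit. Leaving out 1 array at a time gave 0 to 1 members, 0 to 3 pathway genes, 0 to 1 regulated genes and 0 to 3 probe sets. The share of all genes passing moved too, for example to 6.64% without WT2 and 14.2% without KO2. The cause of these changes was not tested.

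Signs turned for Tgfbr1 with the mean of its probe sets (-0.49) or that of largest variance (-1.26), for Smad4 (-0.38; probe sets -0.30 and -0.38) and Tgfbr2 probe set 1422019_at (0.15) after range scaling, and for Smad4 probe set 1422485_at (-0.011) after quantile normalization. Without the batch 1 pair they turned for Skil (0.10, and 0.27 on its other probe set) and Ski probe set 1429192_at (0.074). Tgfb1 probe set 1445360_at turned with batch as a random block (-0.026) and with the replicate block (-0.00044). Without single arrays, signs turned for Tgfb1 (-0.32 to 0.70; its other probe set -0.35 to 0.28), Smad4 (-0.010 to 0.25), Skil (-0.59 to 0.10; -0.68 to 0.27), Ski probe set 1429192_at (-0.53 to 0.074) and Tgfbr1 probe set 1420894_at (-1.71 to 0.45). The other members kept their sign in every alternative run. Signal over background could not be assessed from the values.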
